A study of Mus musculus with 24 samples.

Results

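Polycomb repressor genes were followed across the blood progenitors of mice with reduced Dnmt1, the maintenance DNA methyltransferase. The 10 genes were chosen by name: Ezh2, Ezh1, Eed and Suz12 of Polycomb repressive complex PRC2, and Ring1, Rnf2, Bmi1, Cbx2, Cbx7 and Cbx8 of PRC1. They are 10 of 18194 genes named on the array and hold 28 of its 34958 probe sets with a single gene symbol. All cells were sorted from bone marrow of 129ola mice 8 to 12 weeks old. The groups were B progenitors of wildtype mice (2 arrays), myeloid progenitors (MP) of Dnmt1-/chip mice, which the labels call hypomorph (3 arrays), MP of wildtype mice (3 arrays), haematopoietic stem cells (HSC) of Dnmt1-/chip mice (3 arrays) and HSC of wildtype mice (2 arrays). The -/chip genotype pairs a null with a hypomorphic Dnmt1 allele in all cells of the mouse, and hypomorph B progenitors are not analysed here. Between 35000 and 100000 sorted cells went into an array, and the labels do not say whether replicates came from separate animals or pools, so p-values measure the spread between these arrays.

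Polycomb proteins keep developmental genes silent through chromatin. PRC2 methylates lysine 27 of histone H3 through Ezh2 or its paralog Ezh1, with Eed and Suz12 as the partners that make the enzyme active. PRC1 ubiquitinates histone H2A through the ligases Ring1 or Rnf2, and its Cbx subunits bind the mark that PRC2 leaves. In blood, Ezh2 is known as the form of dividing progenitors and is needed for early B cell development, Ezh1 for adult stem cells, and Bmi1 for stem cell self-renewal.

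The levels given here are log2 intensities from the deposited RMA values, where a step of 1 is a doubling, and levels of different probe sets cannot be set against each other. The array medians lay between 4.56 and 4.74. Dnmt1 itself was 6.75-fold lower in hypomorph than wildtype HSC (log2 difference -2.75, SE 0.25, adjusted p = 5.9e-05) and 10.1-fold lower in hypomorph than wildtype MP (log2 difference -3.34, SE 0.22, adjusted p = 2.33e-05), both on its brightest probe set. Its other probe sets were unequal: 1447877_x_at gave log2 differences of -2.51 in HSC and -3.15 in MP, while 1422946_a_at gave -0.75 in HSC (1.69-fold lower, adjusted p = 0.106, not called) and -1.67 in MP (adjusted p = 0.0065). Marker lists followed the sorts: 9 B progenitor markers averaged 11.27 to 11.28 on B progenitor arrays and 4.53 to 5.11 elsewhere, and 9 HSC markers were highest in HSC of both genotypes. Arrays of a group differed in sex-linked RNA: Y-linked Eif2s3y was 9.31, 6.95 and 8.10 on hypomorph HSC arrays and 8.68 and 2.35 on wildtype HSC arrays. Xist, which is made by the inactive X of female cells, was 9.83, 12.70 and 12.50 on hypomorph HSC arrays and 11.96 and 12.63 on wildtype HSC arrays. Both RNAs were at or above the intensity filter of 4.64, the median of all values, on 8 of the 13 arrays, 3 of 3 in hypomorph HSC and 1 of 2 in wildtype HSC. In wildtype MP they were so on 2 of 3 arrays. Wildtype arrays with both thus appear to hold RNA of male and female animals.

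Among wildtype cells, 4 to 6 of the 10 genes differed between cell types, while 1 differed by Dnmt1 genotype in HSC and 0 in MP. Each gene was read by its probe set with the highest mean, and a limma adjusted p under 0.05 counts as called. The same contrast held over all 12765 genes. Of these, 29.3% to 43.6% were called between wildtype cell types, against 9.45% by genotype in HSC and 0.494% in MP. Hypomorph over wildtype, 1 of 10 genes was called in HSC (higher), where 8.76% of all 22122 tested probe sets were called, and 0 of 10 in MP, where 0.452% were called. Without adjustment, limma gave p under 0.05 for 5 of the genes in HSC and 2 in MP. The difference between these genotype effects (HSC minus MP) was called for 1 gene, against 4.38% of all probe sets.

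Between cell types of wildtype mice, 6 of 10 genes were called in B progenitors over HSC (2 higher and 4 lower), against 41.4% of all probe sets. In B progenitors over MP, 4 were called (3 higher and 1 lower), against 33.4% of all probe sets, and in MP over HSC 4 were called (2 higher and 2 lower), against 26.8%. Among hypomorph cells, 0 of 10 were called in MP over HSC, against 8.41% of all probe sets, with 3 under 0.05 before adjustment in limma. Over all 19 tested probe sets of these genes, the called shares in the same order were 57.9%, 47.4%, 42.1% and 0%, and they were 10.5% and 0% for the genotype in HSC and in MP. Suz12 alone holds 6 of the 19 and gave 6, 6 and 5 of the calls between wildtype cell types, and without it 5, 3 and 3 of 13 were called (38.5%, 23.1% and 23.1%), below the shares of all probe sets. With each gene on the array read by its brightest probe set, the called shares of all 12765 genes were 43.6%, 34.6% and 29.3% between wildtype cell types, 10.1% among hypomorph cells, and 9.45% and 0.494% for the genotype in HSC and MP. The counts of the 10 genes lie within 2 genes of these shares, and no test of the group of genes was made. Comparisons that use the same group share its arrays and are not independent, wildtype HSC entering 4 of the 7 comparisons.

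**Figure D1:**
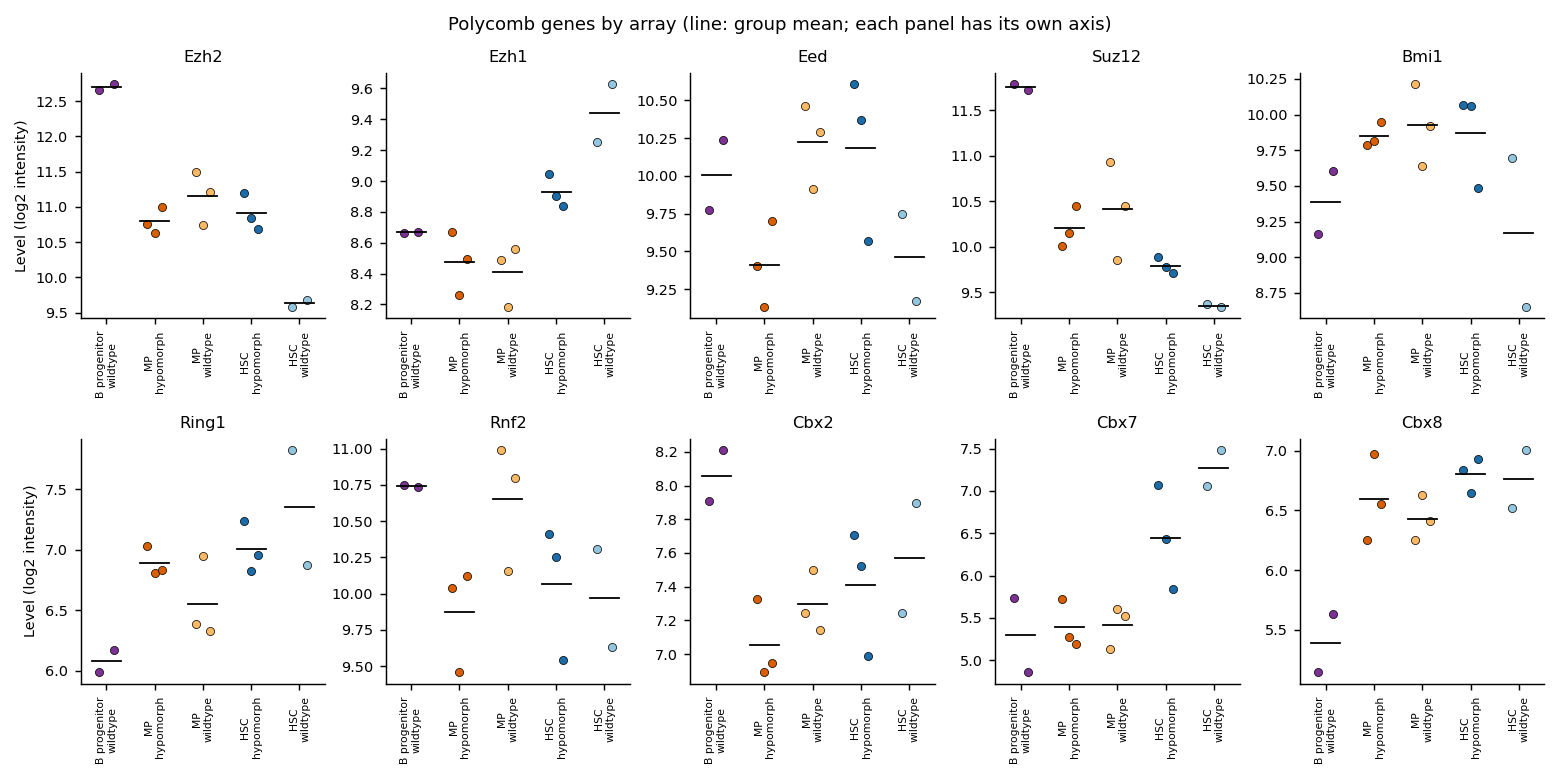
Level in log2 intensity (y axis, own scale per panel) of each Polycomb gene on every array, by group from wildtype B progenitors on the left to wildtype HSC on the right; points are arrays and lines are group means. Ezh2 and Suz12 are highest in B progenitors and lowest in wildtype HSC, while Ezh1 and Cbx7 are highest in wildtype HSC.

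Ezh2, the catalytic subunit that dominates in dividing cells, had the widest range of the 10 genes. Its level was 12.66 and 12.74 in wildtype B progenitors, 10.76, 10.62 and 11 in hypomorph MP, and 11.49, 10.75 and 11.21 in wildtype MP. In HSC it was 11.19, 10.85 and 10.69 in hypomorph cells, against 9.58 and 9.69 in wildtype cells. The B progenitor arrays lay above all others and the wildtype HSC arrays below all others, while both MP groups and hypomorph HSC overlapped in the middle. Ezh2 rose 2.42-fold in hypomorph over wildtype HSC (log2 fold change 1.28, SE 0.25, 95% interval 0.75 to 1.81, adjusted p = 0.00733). In MP the genotype difference was -0.35 on the log2 scale (interval -0.83 to 0.12, adjusted p = 0.48), and the groups overlapped. The gap between the effects, 1.63 on the log2 scale (SE 0.33, adjusted p = 0.0192), was itself called. That call is lost when any of 4 arrays is left out: wildtype HSC replicate 2 (adjusted p = 0.053), hypomorph MP replicate 2 (0.0563), wildtype MP replicate 1 (0.0605) or wildtype MP replicate 3 (0.0612). The rise in HSC stayed called without each of the 13 arrays in turn, but a fit on the HSC arrays alone gave an adjusted p of 0.0995.

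MP exceeded HSC in Ezh2 among wildtype cells, and no difference was detected among hypomorph cells. In wildtype cells Ezh2 rose 2.86-fold in MP over HSC (log2 fold change 1.52, SE 0.25, adjusted p = 0.000641). In hypomorph cells the same difference was -0.11 on the log2 scale, with an interval of -0.59 to 0.36. Between B progenitors and the other wildtype cells the distance was greater against HSC: Ezh2 rose 8.39-fold in B progenitors over HSC (log2 fold change 3.07, SE 0.27, adjusted p = 1.35e-06) and 2.93-fold in B progenitors over MP (1.55, SE 0.25, adjusted p = 0.000269). In bulk RNA, more cells with a high level and more RNA in each cell cannot be told apart.

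Other measured properties of the HSC arrays moved in the same direction as Ezh2. A list of 23 DNA replication genes (Mcm, Gins, Rrm and related genes) averaged 10.43, 10.33 and 10.12 on hypomorph HSC arrays, against 9.27 and 9.17 on wildtype HSC arrays. Of these, 12 rose and 0 fell in hypomorph over wildtype HSC, with a median of 0.97 on the log2 scale, where 9.45% of all genes were called and their median was -0.11. The largest rises were those of the helicase subunit Mcm4 (2.64), the licensing factor Cdc6 (2.34) and Uhrf1 (2.29), the partner of Dnmt1 at newly copied DNA. Without wildtype HSC replicate 2 the values were 1.71 for Mcm4 (adjusted p = 0.0881), 1.90 for Cdc6 and 1.48 for Uhrf1, the last 2 still called. In MP, 0 of 23 were called (median -0.08), where 0.494% of all genes were called.

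**Figure D2:**
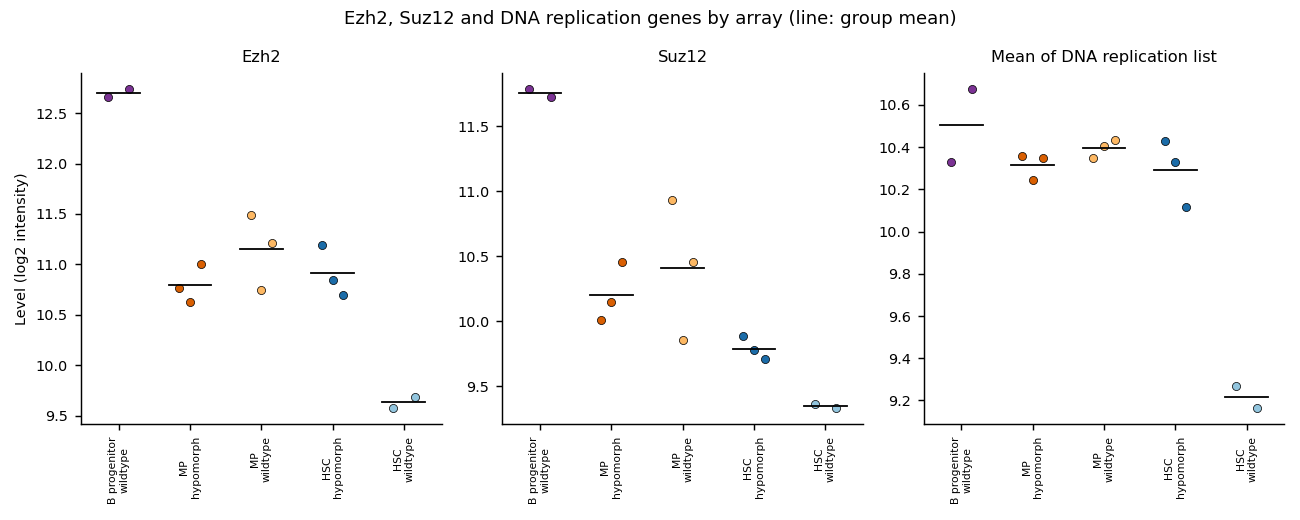
Level in log2 intensity (y axis) of Ezh2, Suz12 and the mean of 23 DNA replication genes on every array, by group; points are arrays and lines are group means. Wildtype HSC are lowest in all panels, and hypomorph HSC reach the MP range for Ezh2 and the replication mean, while B progenitors stand above MP for Ezh2 and Suz12.

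Across wildtype cell types the replication list and Ezh2 moved together in only some comparisons. The list held 17 called rises and 0 falls in wildtype MP over HSC and 12 rises and 0 falls in B progenitors over HSC. For B progenitors over MP it held 3 rises, led by the reductase subunit Rrm2 (1.89) and Uhrf1 (1.57), and 2 falls, led by the kinase Tk1 (-1.72), with a median of 0.07, although Ezh2 and Suz12 both rose there. Markers of some other cells also rose in hypomorph over wildtype HSC, where 9.45% of all genes were called. All 7 mast cell and basophil markers rose, as did 3 of 9 myeloid progenitor markers and 3 of 7 tested erythroid markers (median 0.90), with 0 falls in these lists. Of 3 tested T and NK cell markers 1 rose and 0 fell, and 0 of 6 tested neutrophil markers were called. The lists of 6 megakaryocyte, 9 B progenitor and 4 tested macrophage and stroma markers each held 0 rises and 1 fall. The mast and basophil mean ran from 7.16 to 8.06 on hypomorph HSC arrays, against 4.54 to 4.90 on wildtype HSC arrays, where 3 of the 7 stayed under the intensity filter on both. The myeloid mean ran from 8.48 to 8.83 on hypomorph HSC arrays and from 7.17 to 7.67 on wildtype HSC arrays, with 0 and 1 of 9 markers under the filter. The erythroid mean of 8 markers ran from 7.64 to 8.02 on hypomorph HSC arrays, against 6.99 on both wildtype HSC arrays, with 1 and 2 of 8 under the filter. On MP arrays the myeloid mean ran from 12.01 to 12.11 in hypomorph and from 11.79 to 11.84 in wildtype cells. Of the HSC markers, 1 of 9 rose and 3 fell, with means of 9.41 to 9.70 on hypomorph HSC arrays and 10.23 to 10.41 on wildtype HSC arrays. The part of replication, of these cells or of the mix of sexes in the Ezh2 difference was not tested.

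Ezh2 and Suz12 were also the only 2 of 9 Polycomb genes with a RefSeq promoter (GRCm38.p6) whose window of 300 bases held an E2F-type motif, spelled TTTCCCGC, TTTCGCGC, TTTGCCGC or TTTGGCGC on either strand. The same letters occur in 2.26% of all 32851 promoters, 744 in number. Every spelling holds a CG, and the 250 bases before the 9 promoters hold 12 to 37 of these pairs, against a median of 6. The share of all promoters is therefore not a background matched for CG. E2F factors drive replication genes, and a match is a description and no evidence of binding. The windows are shown because these are the genes with the largest rises in B progenitors; capitals mark the motif, which starts at base 4 from the transcription start in Ezh2 (chr6:47595009-47595038, minus strand) and at base -219 in Suz12 (chr11:79992876-79992905, plus strand).
Ezh2: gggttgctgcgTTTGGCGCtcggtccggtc
Suz12: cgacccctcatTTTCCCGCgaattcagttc

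CpG dinucleotides, the sites that Dnmt1 methylates, were more numerous before all 9 promoters than before the median promoter. The 250 bases upstream held 12 (Eed) to 37 (Suz12) of them, where the median promoter holds 6. Of all promoters, 66.5% held fewer than Eed and 70.6% fewer than Ezh1, against 97.8% for Suz12. Methylation was not measured here. The 100 bases just upstream are shown for Ezh2 (chr6:47595031-47595130, minus strand), Suz12 (chr11:79993006-79993105, plus strand) and Ezh1 (chr11:101226464-101226563, minus strand), with CpG in capitals, since these are the PRC2 genes that differ most between cell types.
Ezh2: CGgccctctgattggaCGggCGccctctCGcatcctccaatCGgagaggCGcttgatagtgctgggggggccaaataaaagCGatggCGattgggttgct
Suz12: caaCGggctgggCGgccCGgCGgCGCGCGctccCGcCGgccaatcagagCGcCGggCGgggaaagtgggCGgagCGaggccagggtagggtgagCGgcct
Ezh1: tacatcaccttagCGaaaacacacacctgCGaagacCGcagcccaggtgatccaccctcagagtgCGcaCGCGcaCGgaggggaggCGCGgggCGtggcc

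Ezh1, the paralog with weaker enzyme activity that serves non-dividing cells, was highest in wildtype HSC, where Ezh2 was lowest. It measured 8.66 and 8.67 in wildtype B progenitors, 8.67, 8.26 and 8.49 in hypomorph MP, and 8.49, 8.18 and 8.56 in wildtype MP. Hypomorph HSC had 9.04, 8.90 and 8.84, against 9.25 and 9.63 in wildtype HSC. Both HSC groups lay above all other arrays without overlapping each other, and the remaining groups were close together. Ezh1 fell in wildtype MP over HSC (log2 fold change -1.03, SE 0.21, adjusted p = 0.00326), a call kept without any 1 array. In B progenitors over HSC the change was -0.77 (SE 0.23, adjusted p = 0.0165), called with less certainty: centring the arrays gave -0.54 (adjusted p = 0.0845), and the call was lost without wildtype HSC replicate 2 (-0.58, adjusted p = 0.119) and without either B progenitor array (adjusted p = 0.0567 and 0.0537). The genotype difference in HSC was -0.51 (interval -0.97 to -0.05, adjusted p = 0.159) and did not pass. The other 3 Ezh1 probe sets did not reach the intensity filter on 2 arrays and were not tested.

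Suz12, the scaffold that PRC2 needs for stability, was highest in B progenitors and lowest in wildtype HSC, as Ezh2 was, and was called in neither genotype comparison. It reached 11.79 and 11.73 in wildtype B progenitors, 10.01, 10.15 and 10.45 in hypomorph MP, and 10.93, 9.86 and 10.45 in wildtype MP. Hypomorph HSC measured 9.89, 9.78 and 9.71, against 9.37 and 9.34 in wildtype HSC. B progenitors stood above all other arrays and wildtype HSC below all others, with hypomorph HSC touching only the lowest MP array. Suz12 rose 5.29-fold in B progenitors over HSC (log2 fold change 2.40, SE 0.30, adjusted p = 2.82e-05), 2.54-fold in B progenitors over MP (1.34, SE 0.27, adjusted p = 0.00173) and 2.09-fold in wildtype MP over HSC (1.06, SE 0.27, adjusted p = 0.0112). The last call was lost without wildtype HSC replicate 2 (1.05, adjusted p = 0.0619). The genotype difference was 0.44 in HSC (interval -0.15 to 1.02, adjusted p = 0.354) and -0.21 in MP (interval -0.73 to 0.31). Neither passed, although their signs are those of Ezh2 and the HSC genotypes did not overlap.

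Suz12 is the only one of the genes with 6 tested probe sets, so its pattern could be read repeatedly on the same arrays. All 6 rose in B progenitors over HSC, with log2 fold changes between 1.54 and 4.46, and all 6 rose in B progenitors over MP, between 1.20 and 2.62. In wildtype MP over HSC 5 of 6 rose, by 1.06 to 2.03, and probe set 1420020_at measured 0.34 (adjusted p = 0.307). Of these 5 calls, 4 were lost without 1 or the other wildtype HSC array, with adjusted p of 0.0619 to 0.188, and probe set 1420022_s_at kept its call. That probe set lay under the filter on every HSC array, at 3.46 to 4.51 in hypomorph and 2.99 to 3.38 in wildtype cells, so its HSC level may be background. For B progenitors over MP, 1449661_at lost its call without B progenitor replicate 1 (1.75, adjusted p = 0.0632). Between genotypes 0 of 6 were called in HSC, where the differences ran from -0.01 to 0.81, and 0 of 6 in MP, from -1.04 to -0.07. Probe sets of a gene share RNA and are not replicates, and the dimmer ones lie near the filter of 4.64 outside B progenitors.

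**Figure D3:**
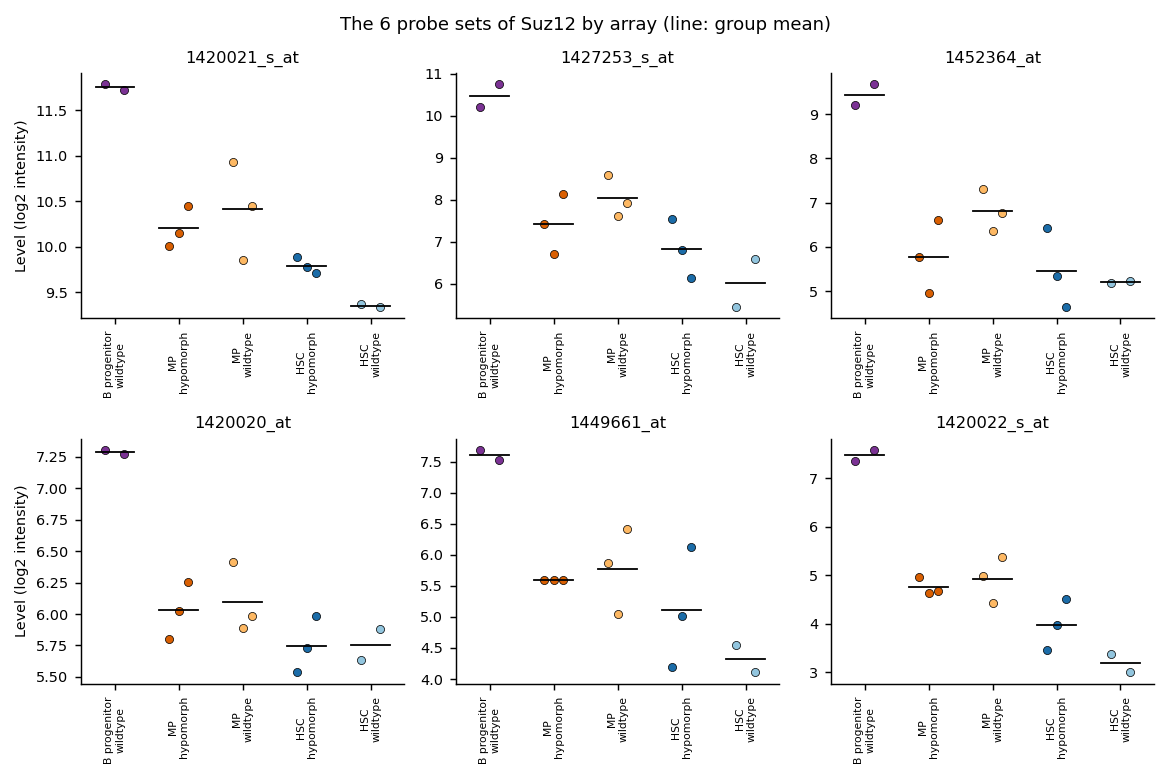
Level in log2 intensity (y axis, own scale per panel) of the 6 Suz12 probe sets on every array, by group; points are arrays and lines are group means. B progenitors stand above every other array in each panel, by 1.20 to 2.62 over the wildtype MP mean.

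Eed, which binds the methylated histone and stimulates the enzyme, had genotype differences of opposite sign in MP and HSC, and neither passed. In MP it was 9.40, 9.13 and 9.70 in hypomorph cells, against 10.46, 9.91 and 10.29 in wildtype cells. In HSC it was 10.61, 10.37 and 9.57 in hypomorph cells, against 9.75 and 9.17 in wildtype cells. The MP genotypes did not overlap and the HSC genotypes did. The difference was -0.81 in MP (interval -1.43 to -0.19, adjusted p = 0.266) and 0.72 in HSC (interval 0.03 to 1.42, adjusted p = 0.19). Their gap of 1.53 (SE 0.43, adjusted p = 0.0628) was close to the threshold and passed it with centred arrays (1.46, adjusted p = 0.043) and in 3 of 13 fits that each left out 1 array, among them the fit without hypomorph HSC replicate 3 (1.84, adjusted p = 0.0133). B progenitors measured 9.77 and 10.24, inside the range of the other groups.

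Ring1 and Rnf2 are the alternative ubiquitin ligases of PRC1. Ring1 was 5.99 and 6.17 in wildtype B progenitors, 7.03, 6.80 and 6.83 in hypomorph MP, 6.39, 6.95 and 6.33 in wildtype MP, 7.24, 6.82 and 6.95 in hypomorph HSC, and 7.83 and 6.88 in wildtype HSC. B progenitors lay below all other arrays. Ring1 fell in B progenitors over wildtype HSC (log2 fold change -1.27, SE 0.31, adjusted p = 0.00501), a call lost without wildtype HSC replicate 1 (-0.80, adjusted p = 0.0632). In wildtype MP over HSC it measured -0.80 (limma adjusted p = 0.0537), close to the threshold, and passed under some alternatives and not under others. It passed with the 75th percentile filter (adjusted p = 0.0479), with 1 probe set per gene (0.0437) and without wildtype MP replicate 2 (-0.99, adjusted p = 0.025). Without wildtype HSC replicate 2 it was -1.27. The difference rests on wildtype HSC replicate 1 (7.83), since replicate 2 (6.88) lay inside the wildtype MP range of 6.33 to 6.95.

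Rnf2 was called in none of the 7 comparisons by its brightest probe set, with unadjusted p under 0.05 in 1 of them. With centred arrays it passed in B progenitors over HSC (1.00, adjusted p = 0.0276, against 0.77 and an adjusted p of 0.108 without centring), as did probe set 1451519_at (1.11, adjusted p = 0.0123). It measured 10.75 and 10.74 in wildtype B progenitors, 10.04, 9.46 and 10.12 in hypomorph MP, 10.99, 10.16 and 10.80 in wildtype MP, 10.41, 10.25 and 9.54 in hypomorph HSC, and 10.31 and 9.63 in wildtype HSC. The MP genotypes did not overlap, hypomorph arrays being lower by 0.78 on the log2 scale (interval of the log2 fold change -1.42 to -0.14, adjusted p = 0.29). Its probe sets disagreed there: 1451519_at gave -0.44, while the dim 1448041_at gave 0.57 and 1448043_x_at gave 0.33, all uncalled.

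**Figure D4:**
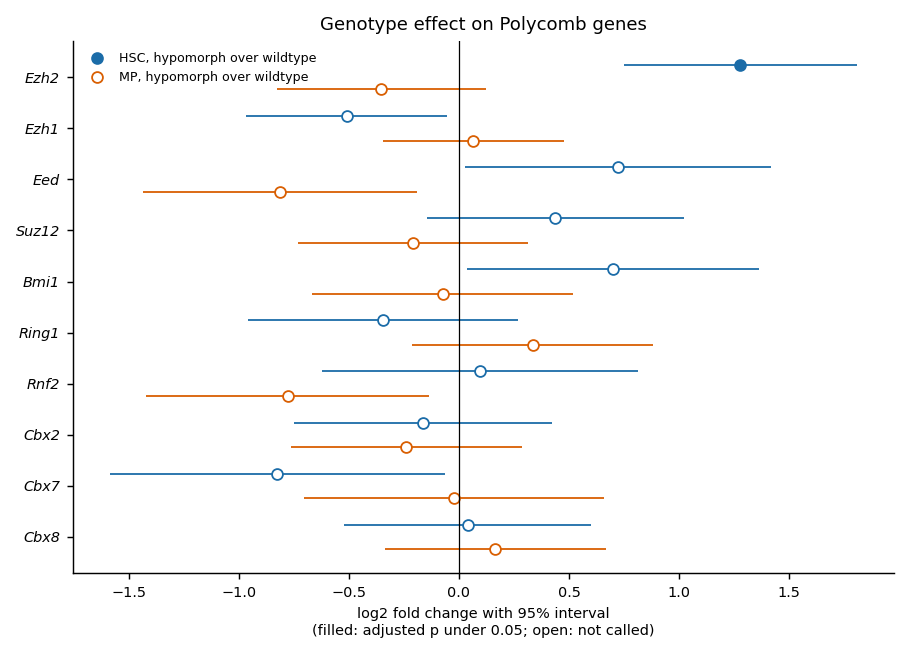
Log2 fold change of hypomorph over wildtype (x axis) for each Polycomb gene in HSC (blue) and MP (orange), with 95% intervals from limma; filled points passed an adjusted p of 0.05. Ezh2 in HSC, at 1.28, is the only filled point.

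Bmi1, the Polycomb ring finger protein that activates the ligase and sustains stem cells, gave a mixed reading between HSC genotypes. Its brighter probe set, 1417493_at, measured 10.06, 10.06 and 9.48 in hypomorph HSC, against 9.69 and 8.65 in wildtype HSC, and was not called (log2 fold change 0.70, interval 0.03 to 1.36, adjusted p = 0.185). The second, 1448733_at, measured 8.97, 9.82 and 9.22 in hypomorph HSC and 8.26 and 8.12 in wildtype HSC, with no overlap. It rose 2.21-fold (log2 fold change 1.15, SE 0.33, adjusted p = 0.0458), a call that 10 of the 13 single left-out arrays removed, with log2 fold changes of 0.90 to 1.21 and adjusted p of 0.0541 to 0.24 in those fits. In MP this probe set differed by -0.14 between genotypes. Bmi1 in B progenitors, 9.16 and 9.61 on the brighter probe set, was called neither over wildtype HSC nor over wildtype MP.

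The Cbx genes encode exchangeable readers of the PRC2 mark. Cbx7, known as the reader of self-renewing stem cells, was 5.73 and 4.86 in wildtype B progenitors, 5.72, 5.27 and 5.20 in hypomorph MP, 5.13, 5.60 and 5.52 in wildtype MP, 7.06, 6.43 and 5.85 in hypomorph HSC, and 7.05 and 7.49 in wildtype HSC. Every HSC array lay above every B progenitor and MP array. Cbx7 fell in B progenitors over wildtype HSC (log2 fold change -1.98, SE 0.39, adjusted p = 0.00108) and in wildtype MP over HSC (-1.85, SE 0.35, adjusted p = 0.0019). In hypomorph MP over HSC it measured -1.05 (interval -1.73 to -0.37, adjusted p = 0.0584), and it passed with the second deposited normalization (adjusted p = 0.0288). The hypomorph HSC arrays spread from 7.06 down to 5.85, the last close to the highest hypomorph MP array (5.72). Between HSC genotypes the difference was -0.82 (interval -1.58 to -0.06, adjusted p = 0.171), with overlapping groups.

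Cbx8 instead set B progenitors apart, with 5.14 and 5.64 there. All other arrays were higher: 6.25, 6.97 and 6.56 in hypomorph MP, 6.25, 6.63 and 6.41 in wildtype MP, 6.84, 6.64 and 6.93 in hypomorph HSC, and 6.52 and 7.01 in wildtype HSC. Cbx8 fell in B progenitors over HSC (log2 fold change -1.37, SE 0.28, adjusted p = 0.00167) and over MP (-1.04, SE 0.26, adjusted p = 0.00723), the second call being lost without B progenitor replicate 1 (-0.79, adjusted p = 0.0979). Its neighbour on chromosome 11, Cbx2, with 0 genes between them in RefSeq, was not lower in B progenitors. Cbx2 was 7.91 and 8.21 in B progenitors, 7.33, 6.89 and 6.95 in hypomorph MP, 7.25, 7.50 and 7.14 in wildtype MP, 7.71, 7.53 and 6.99 in hypomorph HSC, and 7.24 and 7.90 in wildtype HSC. B progenitors had the highest arrays for Cbx2, and it rose narrowly in B progenitors over MP (log2 fold change 0.76, SE 0.27, adjusted p = 0.0452). That call remained in 6 of 13 fits that each left out 1 array, and the fits that lost it gave log2 fold changes of 0.61 to 0.92 and adjusted p of 0.055 to 0.217. When all probe sets of a gene were averaged, those under the filter included, Ezh1 (-0.07) and Cbx7 (-0.41) in B progenitors over HSC and Cbx2 (0.27) in B progenitors over MP were not called.

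**Figure D5:**
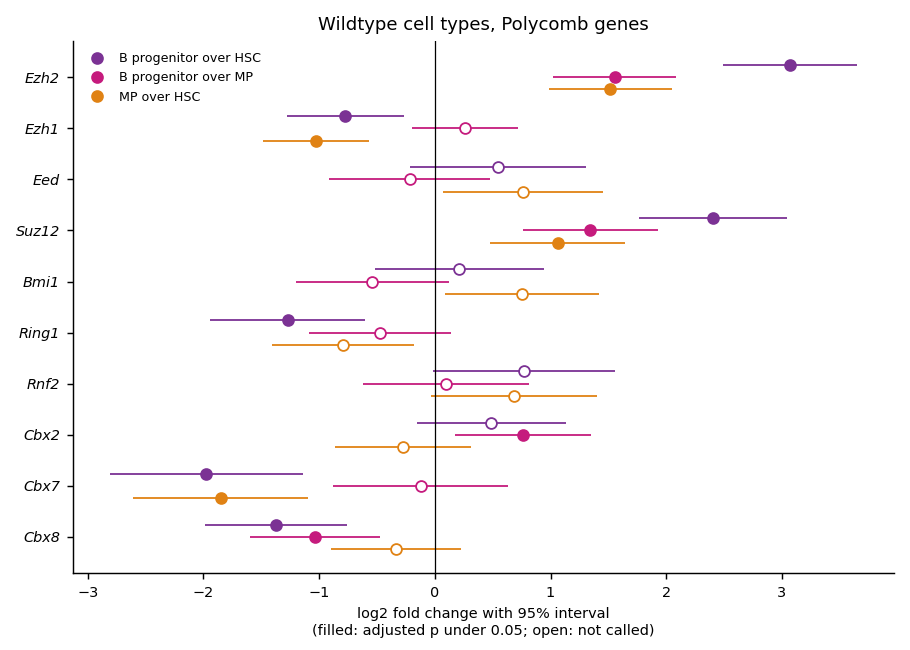
Log2 fold change between wildtype cell types (x axis) for each Polycomb gene, B progenitor over HSC (purple), B progenitor over MP (pink) and MP over HSC (orange), with 95% intervals from limma; filled points passed an adjusted p of 0.05. Ezh2 and Suz12 lie to the right in all 3 comparisons, Cbx7 and Ezh1 to the left against HSC, and Cbx8 to the left in B progenitors.

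Centring each array on its median moved the B progenitor comparisons as a whole, by 0.23 over HSC and 0.21 over MP on the log2 scale. Of all called probe sets, 41.6% were higher in B progenitors over HSC, against 53.8% with centred arrays, and 39.0% were higher in B progenitors over MP, against 52.4% with centred arrays. Ezh2, Suz12, Cbx7, Cbx8, Ring1 and Cbx2 kept their direction and their calls in these comparisons with centred arrays, Ezh1 lost its call over HSC, and Rnf2 gained one over HSC.

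Of 7 other PRC2 subunits, 0 were called by genotype in HSC (median 0.26) or MP (median 0.00). With 9.45% and 0.494% of all genes called there, these counts do not set the subunits apart. Phf1, an accessory factor that guides PRC2 to chromatin, fell in wildtype MP over HSC (-1.30, adjusted p = 0.000311) and in B progenitors over HSC (-1.29, adjusted p = 0.000259). The histone chaperone Rbbp4 rose in B progenitors over HSC (0.81, adjusted p = 0.00986), but not without wildtype HSC replicate 2 (0.52, adjusted p = 0.103).

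Of 18 other PRC1 subunits, 0 rose and 1 fell by genotype in HSC, where 9.45% of all genes were called, and 0 were called in MP. Between wildtype cells 2 rose and 3 fell in MP over HSC (29.3% of all genes called), 0 rose and 3 fell in B progenitors over HSC (43.6%), and 1 rose and 3 fell in B progenitors over MP (34.6%). The polyhomeotic protein Phc3 fell in hypomorph over wildtype HSC (-1.07, adjusted p = 0.0273), a call lost without wildtype HSC replicate 2 (-0.75, adjusted p = 0.274) or hypomorph HSC replicate 2 (-1.04, adjusted p = 0.0857). Cbx6, a further reader, fell by 2.62 in B progenitors over HSC, by 1.34 in wildtype MP over HSC and by 1.03 in hypomorph MP over HSC, and by 1.27 in B progenitors over MP. All of these calls held without any 1 array. Phc1 fell by 1.19 in hypomorph MP over HSC. Kdm2b, which brings a variant PRC1 to unmethylated CpG islands, rose in wildtype MP over HSC (1.60, adjusted p = 0.00164). Mga, a subunit of a different variant PRC1, was at 1.16 there (adjusted p = 0.0406) and kept its call in 7 of 13 fits with 1 array left out. Over HSC, the B progenitor values of Phc3 (-0.80, adjusted p = 0.0443) and Phc1 (-0.78, adjusted p = 0.0426) passed narrowly, and without wildtype HSC replicate 2 neither did (adjusted p = 0.306 and 0.261). Against MP, B progenitors had Pcgf6 at -1.63 (adjusted p = 0.00593) and Kdm2b at -1.02 (adjusted p = 0.0173), and both calls were lost without B progenitor replicate 1 (adjusted p = 0.0593 and 0.154).

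Opposing enzymes were counted in the same way. By genotype 9.45% of all genes were called in HSC and 0.494% in MP, so a count of 0 in a short list does not set its genes apart. Of 7 subunits of the H2A deubiquitinase that removes the PRC1 mark, 0 were called by genotype in either cell type, and Asxl2 rose in wildtype MP over HSC (1.79) and in B progenitors over HSC (2.10), the MP call being lost without wildtype HSC replicate 2 (1.64, adjusted p = 0.0571). Of 13 trithorax genes and H3K27 demethylases, 3 fell in hypomorph over wildtype HSC and 0 rose, with 9.45% of all genes called there. They were the demethylase Kdm6b (-1.45), the methyltransferase Kmt2a (-1.20) and its relative Kmt2c (-0.97). Without wildtype HSC replicate 2 all 3 calls were lost (-0.83, -0.64 and -0.84, adjusted p = 0.361, 0.338 and 0.274). Kdm6b and Kmt2a also lost theirs without hypomorph HSC replicate 1 or 2 (adjusted p = 0.0603 to 0.0754), and Kmt2c kept its call in 5 of 13 fits with 1 array left out. In B progenitors the remodeller Smarca4 rose over HSC (2.18) and over MP (2.34), and the core subunit Wdr5 fell over HSC (-1.32). Dpy30 (-0.89 over HSC), Kdm6b (1.08 over MP) and Ash2l (-1.01 over MP) also passed, and none of these calls held without B progenitor replicate 1 (adjusted p = 0.0941, 0.187 and 0.151). Kmt2a fell in wildtype MP over HSC (-1.46), a call lost without wildtype HSC replicate 2 (-0.91, adjusted p = 0.059).

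Textbook targets of Polycomb were mostly dim in every group. Of 36 targets on the array, 24 to 26 stayed under the filter on all arrays of a group, and 11 were tested. By genotype 0 of 11 were called in HSC (median -0.31, against -0.11 over all genes) and 0 in MP (median 0.19). With 9.45% and 0.494% of all genes called there, these counts do not set the targets apart. In B progenitors over HSC 5 of 11 fell and 0 rose, near the 43.6% of all genes called there, led by the stem cell homeobox genes Hoxa9 (-4.13), Hoxa10 (-2.21) and Hoxa7 (-1.47). Hoxa7 lost its call without wildtype HSC replicate 2 (-0.95, adjusted p = 0.0849) or B progenitor replicate 2 (-0.99, adjusted p = 0.0843). Over MP, Hoxa9 (-3.29) and Hoxa10 (-1.29) fell in B progenitors, with -2.03 for Hoxa9 and -1.09 for Hoxa10 (adjusted p = 0.117) without B progenitor replicate 1. Hoxa10 fell in hypomorph MP over HSC as well (-1.71). In wildtype MP over HSC 3 of 11 targets passed narrowly, near the 29.3% of all genes, Hoxb4 (-0.86), Hoxa5 (-0.72) and Neurog1 (-0.54), and each lost its call without wildtype HSC replicate 1 (adjusted p = 0.227, 0.383 and 0.124). They kept their calls in 9, 5 and 3 of the 13 fits with 1 array left out.

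For genes whose 5 group means spanned at least 1 on the log2 scale, the most similar patterns were found by the root mean square distance between group means after centring. Nearest to Ezh2 (span 3.07) were the proliferation marker Mki67 at 0.09, the nucleoside kinase Dck at 0.10 and the surface protein Cd53 at 0.11. Nearest to Suz12 (span 2.40) were Inafm2 at 0.06, the splicing regulator Esrp2 at 0.12 and the cyclin Ccnf at 0.12. The patterns closest to Ezh1 were Vti1b, Cacna2d4 and Sidt2 (0.03 to 0.04), and those closest to Cbx7 were Fmo5, Card10 and Iffo2 (0.07 to 0.08). Cbx2 was nearest to Cdan1, Vezt and Sin3a, Cbx8 to Rnf8, Tut1 and Dancr, and Ring1 to Iscu, Prr12 and BC029722, at 0.02 to 0.04. Eed, Bmi1 and Rnf2 spanned less than 1 and were not ranked. These distances rest on 5 group means over 13 arrays and are a description.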

How the data were processed

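RNA of sorted bone marrow cells was hybridised to mouse Affymetrix expression arrays. The authors computed RMA values, per the submitters' processing notes, and the deposited table is read as log2 intensities because its values run from 1.93 to 14.99; the log base is inferred and every fold change rests on it. Background settings, RMA version and detection calls are not given in the sources used here, so a dim gene may or may not lie above background, and precision is set by how few arrays each group has.

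Of 24 columns, 13 hold a normalization of all arrays, used here, and 11 a second normalization of the HSC and MP arrays, used as an alternative and never as further replicates (same-label columns correlated at 0.999 or above). Probe sets of several genes (932) or none (9211) were left out, and the tested ones had 2 or more arrays at or above 4.64 (the overall median). That left 22122. The filter used all groups, so a member could pass through 1 group alone, but the brightest probe set of each of the 10 genes passed on all 13 arrays. That does not hold for every gene of the lists: Neurog1 passed through wildtype HSC alone.

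Group means were fitted with limma (version 3.58.1, R 4.3.3; 8 degrees of freedom left) and compared in 7 ways, with Benjamini-Hochberg adjustment over all tested probe sets in each. Errors are limma standard errors. The code was tested on simulated data. Whether replicate numbers pair arrays was not settled. Same-numbered arrays deviated together with a median correlation of -0.04 (range -0.27 to 0.27), against 0.04 (range -0.35 to 0.38) for differently numbered arrays. In groups of 2 arrays the deviations mirror each other, so these correlations cannot decide it. Among hypomorph arrays, replicate 1 had the lowest Xist in both HSC and MP (9.83 and 8.13). Replicate 3 had Eif2s3y at 8.10 in both, while replicate 2 had 6.95 in HSC and 2.87 in MP. The replicate 3 values are identical in every digit (8.102662671). Exact ties occur elsewhere in the deposited values, as for Suz12 probe set 1449661_at on all hypomorph MP arrays (5.601899925). The match therefore cannot be read as a likeness of animals. The named genes are the 10 members, Dnmt1, up to 3 called genes with the largest change of each list and comparison, and the 3 nearest patterns. The members, lists and rules were chosen with earlier results of these data known. Promoter sequences come from RefSeq.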

Additional observations from a re-analysis of the deposited data

Results flagged for a closer look

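The genotype effect differed between HSC and MP for Ezh2, by 1.63 on the log2 scale (adjusted p = 0.0192), and for 3 replication genes: Mcm4 by 2.72 (adjusted p = 0.0381), Cdc6 by 2.36 (adjusted p = 0.00467) and Uhrf1 by 1.97 (adjusted p = 0.0361). In each, the limma test of the difference itself passed over all tested probe sets. Cdc6 passed without each of the 13 arrays in turn, Ezh2 in 9 of 13, Uhrf1 in 6 of 13 and Mcm4 in 4 of 13. Without wildtype HSC replicate 2 the values were 1.68 for Ezh2 (adjusted p = 0.053), 1.79 for Mcm4 (adjusted p = 0.143), 1.92 for Cdc6 and 1.16 for Uhrf1 (adjusted p = 0.0854). Groups of 2 and 3 arrays are too small for a test of single outlying arrays.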

How the results depend on the processing

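The alternatives tried for the values of the 10 genes were counted by gene, without their further probe sets. Of these, 1468 kept their side of the threshold and were counted as unchanged. A further 41 newly passed, 26 no longer passed, 41 moved by more than the spread and 0 were counted as reversed. The unchanged include uncalled values that changed sign. Outside that count, Bmi1 probe set 1448733_at between MP genotypes ran from -0.44 to 0.10, with all 21 alternatives labelled unchanged by the same rule. Among other genes, Phc3 in B progenitors over HSC turned to 0.010 with the mean of probe sets. Genes called in hypomorph over wildtype HSC were 1, but 0 with only the arrays compared, 2 with the mean of probe sets and 3 with array weights. The difference of genotype effects had 2 at the 75th percentile filter, 2 with centred arrays and 5 with array weights. Hypomorph MP over HSC had 1 with the second normalization and 1 with a single probe set per gene. Array weights, whose estimation stopped before its tolerance, gave 4 genes for the genotype in MP, 7 in wildtype MP over HSC and 5 in hypomorph MP over HSC. With 1 array left out, the counts ran from 1 to 2 (genotype in HSC), 0 to 0 (genotype in MP), 0 to 2 (their difference), 4 to 5 (wildtype MP over HSC), 0 to 2 (hypomorph MP over HSC), 5 to 6 (B progenitors over HSC) and 2 to 4 (B progenitors over MP). Where that left a group with 1 array, its spread was assumed to be that of the other groups.

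With the replicate block the counts were 1, 0, 1, 4, 0, 6 and 3 in the same order, and Bmi1 probe set 1448733_at (adjusted p = 0.106) and Cbx2 in B progenitors over MP (0.65, adjusted p = 0.0964) lost their calls. Over all probe sets the block lowered the calls to 1188 for the genotype in HSC (1938 without it), 60 in MP (100) and 394 for their difference (970). Across all alternatives these ranged from 77 to 3564, 35 to 6405 and 239 to 5971, those of wildtype MP over HSC (5924) from 3621 to 6944, of hypomorph MP over HSC (1860) from 1102 to 9496, of B progenitors over HSC (9161) from 5735 to 9956 and of B progenitors over MP (7397) from 4580 to 8404. The lowest counts of the B progenitor comparisons are of genes and not of probe sets. They came from the mean of probe sets (5735 of 11843 genes, over HSC) and from 1 probe set per gene (4580 of 12765 genes, over MP). The causes of the ranges were not tested.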
